A study of Mus musculus with 6 samples.

Results

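Neutrophils are the most abundant white cells of mouse bone marrow, and they are born there with their weapons already packed into granules. A promyelocyte first fills primary granules with myeloperoxidase and serine proteases, a myelocyte then fills secondary granules with lactoferrin, lipocalin and cathelicidin, and a nearly mature cell adds gelatinase granules and the receptors that guide it out of the marrow. The mRNAs of these proteins are made in the same order, so primary, secondary and late transcripts mark successive stages of the lineage. T cells are not known as a source of most of them.

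A set of 34 genes of neutrophils and their granules was examined in sorted spleen cells labelled as T cells. The set was given as a list of symbols, and a gene entered if the platform's probe table held a probe set that named only that symbol. This gave 32 measured genes out of 19938 in all, each with 1 probe set. The formyl peptide receptor genes Fpr1 and Fpr2 had no such probe set and are not analysed here. The measured genes were divided by role into 4 primary granule proteins, 4 precursor regulators and markers, 8 secondary granule proteins, 3 late granule and secreted proteins, 5 cytosolic and shared proteins and 8 surface receptors.

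The samples were 3 mice given rapamycin, an inhibitor of the kinase mTOR, and 3 mice given PBS, phosphate-buffered saline. The drug was injected intraperitoneally on alternate days, 1.5 mg/kg each time, up to day 10 after transplantation, and PBS took its place in the other group. All 6 mice were B6D2F1/J hybrids that had been lethally irradiated and given B6 bone marrow depleted of T cells. B6 spleen cells were infused along with the marrow in some recipients of the study, and which of the 6 mice had them is not stated in the labels. CD3-positive cells of the spleen were sorted on day 10, and their RNA was hybridised to 1 whole-transcript array per mouse. Values are log2 expression, differences are rapamycin minus PBS, and a difference of 1 is a doubling.

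The T cell label was checked against its markers. Cd3e, a chain of the T cell receptor complex, measured 12.78, 12.92 and 12.81 in rapamycin mice 1, 2 and 3, against 12.86, 12.82 and 12.92 in PBS mice 1, 2 and 3. Mean levels of 11 T cell identity genes lay between 10.55 and 10.74 with rapamycin and between 10.58 and 10.75 with PBS. One of them, Ptprc, is a general leukocyte gene. Of these 11 genes 3 had positive differences, 0 passed an adjusted p of 0.05 in limma, and Cd5, an inhibitory coreceptor, had the smallest p, at -0.19 (SE 0.08). Array medians were 6.03 to 6.17. Rapamycin mouse 1 had the lowest array weight of the 6 in limma, 0.471, where the others had 0.865 to 1.45. The array method gives no true zero, and whether a gene was detected was not tested. In sorted bulk RNA, fewer cells of a type and less RNA per cell cannot be told apart.

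The promoter windows of 6 of the genes are shown because they stand for the classes whose levels follow: Elane and Mpo for primary granules, Ngp, Ltf and Chil3 for secondary granules, and Retnlg for the late secreted proteins. Each runs from 250 bases before to 50 bases after the annotated start, 5′ to 3′ on the strand of the gene, from RefSeq on GRCm38.p6. Capitals mark the letters of a C/EBP motif, TTNNGNAA or its reverse complement TTNCNNAA, and of a PU.1 motif, GAGGAA or its reverse complement TTCCTC. C/EBP and PU.1 are the transcription factor families best known from granulocyte genes. The windows are chr10:79886062-79886361 (Elane, + strand), chr11:87793534-87793833 (Mpo, +), chr9:110419558-110419857 (Ngp, +), chr9:111019042-111019341 (Ltf, +), chr3:106167515-106167814 (Chil3, - strand) and chr16:48872358-48872657 (Retnlg, +).
Elane: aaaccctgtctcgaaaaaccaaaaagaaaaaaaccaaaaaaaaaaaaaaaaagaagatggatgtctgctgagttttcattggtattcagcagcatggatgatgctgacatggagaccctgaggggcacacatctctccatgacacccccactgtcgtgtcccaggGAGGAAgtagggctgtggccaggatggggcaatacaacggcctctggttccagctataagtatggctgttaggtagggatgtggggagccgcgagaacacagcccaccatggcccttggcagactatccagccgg
Mpo: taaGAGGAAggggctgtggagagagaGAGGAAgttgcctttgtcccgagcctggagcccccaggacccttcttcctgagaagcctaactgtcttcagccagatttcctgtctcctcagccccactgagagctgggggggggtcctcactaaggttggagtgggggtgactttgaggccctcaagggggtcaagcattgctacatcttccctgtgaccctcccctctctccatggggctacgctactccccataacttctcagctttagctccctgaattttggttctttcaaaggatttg
Ngp: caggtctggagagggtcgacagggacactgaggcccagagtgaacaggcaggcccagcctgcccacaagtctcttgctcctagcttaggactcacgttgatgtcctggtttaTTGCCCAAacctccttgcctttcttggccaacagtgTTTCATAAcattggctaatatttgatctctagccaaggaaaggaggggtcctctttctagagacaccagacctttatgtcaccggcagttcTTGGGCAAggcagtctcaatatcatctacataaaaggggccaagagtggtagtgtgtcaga
Ltf: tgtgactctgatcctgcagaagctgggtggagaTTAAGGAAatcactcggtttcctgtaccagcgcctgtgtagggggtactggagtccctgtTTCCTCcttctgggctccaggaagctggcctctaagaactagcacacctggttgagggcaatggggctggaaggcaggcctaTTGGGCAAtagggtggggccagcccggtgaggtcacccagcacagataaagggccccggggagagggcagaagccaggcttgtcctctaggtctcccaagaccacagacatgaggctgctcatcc
Chil3: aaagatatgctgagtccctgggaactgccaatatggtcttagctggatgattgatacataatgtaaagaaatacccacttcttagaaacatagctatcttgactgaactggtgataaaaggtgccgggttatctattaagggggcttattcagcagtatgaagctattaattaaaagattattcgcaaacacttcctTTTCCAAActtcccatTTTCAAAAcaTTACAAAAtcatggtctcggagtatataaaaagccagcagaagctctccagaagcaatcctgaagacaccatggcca
Retnlg: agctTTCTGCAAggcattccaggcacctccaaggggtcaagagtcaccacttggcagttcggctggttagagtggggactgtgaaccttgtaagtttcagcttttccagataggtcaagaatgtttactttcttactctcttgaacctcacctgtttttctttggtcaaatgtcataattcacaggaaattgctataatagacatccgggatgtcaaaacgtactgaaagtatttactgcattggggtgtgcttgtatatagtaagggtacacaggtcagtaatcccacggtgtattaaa

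Windows were found for 31 of the 34 genes, taking the first listed where a gene had several. The C/EBP letters stood in 0 of 4 primary granule windows and in 5 of 7 secondary granule windows. The PU.1 letters stood in all 4 primary granule windows and in 4 of 7 secondary ones. Among 32851 windows of all genes, 40.7% held the C/EBP letters and 28.3% the PU.1 letters on either strand. Over all 31 windows each motif was found in 20. No C/EBP match overlapped a PU.1 match in the 6 windows shown. A match describes these letters in this window and is not a measured binding site.

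Neutrophil and granule genes spread more widely between mice of the same group than most genes did. Of the 32 genes, 19 were among the 1% of all genes with the largest standard deviation between mice of one group, and 25 were among the top 5%. Their median within-group standard deviation was 0.439 log2, against 0.117 over all 19938 genes. Some lists of other non-T cells had medians close to it, 0.408 for monocyte and macrophage genes and 0.405 for erythroid genes. The median was 0.373 for basophil and mast cell genes and 0.353 for eosinophil genes. The remaining non-T cell lists had lower medians, from 0.107 for B cell genes to 0.223 for natural killer cell genes. Dendritic cell, platelet, and stem and progenitor cell genes lay between these. A wide spread was thus shared with some of the non-T cell lists and not with others. Retnlg, a resistin-like secreted protein of maturing neutrophils, ranked at position 2 of all genes, Mpo at 3, S100a9 at 10, Ltf at 11 and Cxcr2 at 12. At the other end, Gfi1, a transcriptional repressor that T cells also use, had a standard deviation of 0.110 and ranked at 10950.

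**Figure D1:**
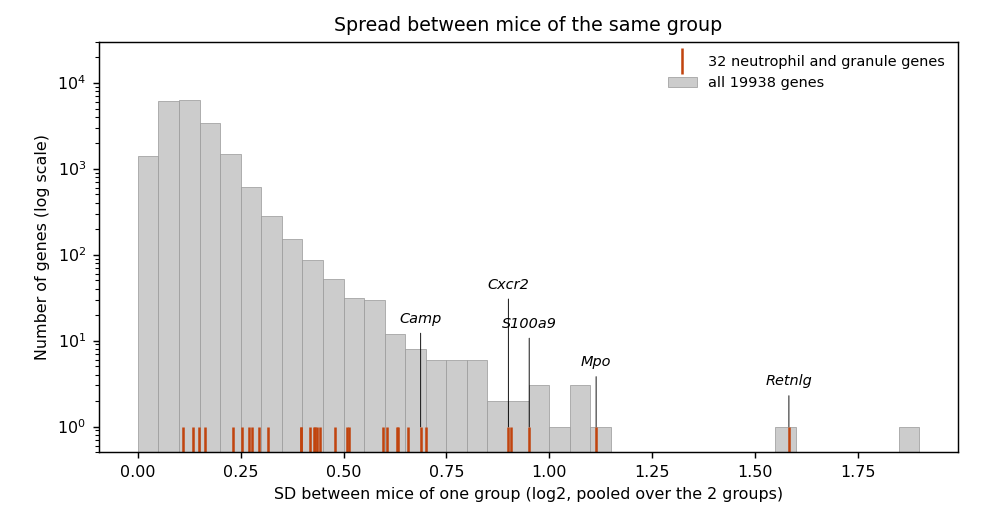
Distribution of the standard deviation between mice of one group, pooled over the rapamycin and PBS groups (x axis, log2), over all 19938 genes (grey bars, number of genes on a log scale), with the 32 neutrophil and granule genes as red ticks. The ticks lie mostly in the right tail, with Retnlg at 1.58 and Mpo at 1.11 against a median of 0.117 over all genes.

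The same mice were at the extremes for gene after gene. Rapamycin mouse 1 had the highest value in 19 of the 32 genes (over all genes it was highest in 19.3%), rapamycin mouse 3 in 9 and PBS mouse 1 in 4. PBS mouse 3 had the lowest value in 18 of the 32, against 16.9% of all genes, and it lay above the mean of the gene in only 1. Rapamycin mouse 2 and PBS mouse 2 were highest in 0. No such order was shared by a whole group: the mean over the 32 genes was 8.98, 8.26 and 8.62 in rapamycin mice 1, 2 and 3, and 8.74, 8.38 and 7.84 in PBS mice 1, 2 and 3. The basophil and mast cell list had the same extremes, with a mean of 6.18 in rapamycin mouse 1 and 5.42 in PBS mouse 3. On the remaining non-T cell lists another mouse had the highest mean.

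**Figure D2:**
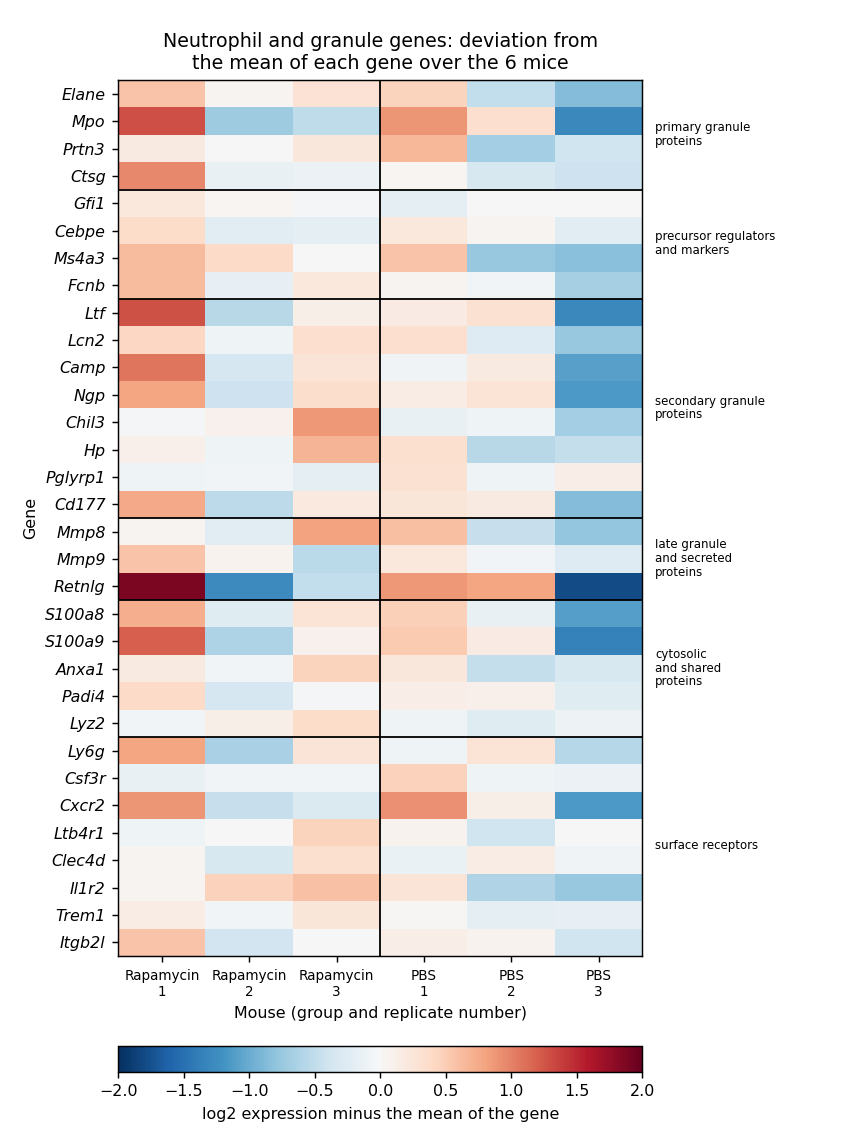
Log2 expression of the 32 genes in each mouse as the deviation from the mean of the gene over the 6 mice (colour, red higher and blue lower), with genes in rows by class and rapamycin mice left of PBS mice. Rapamycin mouse 1 is red in most rows and PBS mouse 3 blue in most rows, and Retnlg has the widest range.

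The comparison between groups asked whether these transcripts differ when the recipient receives rapamycin. By limma's moderated test with Benjamini-Hochberg adjustment over all genes, 0 of the 32 genes passed an adjusted p of 0.05, where 1 of 19938 genes did (0.00502%). At an unadjusted p under 0.05 there were 3, Il1r2, Chil3 and Lyz2, all higher with rapamycin, against 4.67% of all genes in either direction and 1.6% in the higher direction. Groups did not overlap for 2 of the 32, Chil3 and Lyz2, against 9.42% of all genes, and 3.14% in the higher direction. The difference was positive for 29 of the 32 genes, where 44.7% of all genes were positive. Its median over the 32 was 0.29, against -0.01 over all genes. Since these genes vary together from mouse to mouse, the 29 are not independent observations. The count was 20 without rapamycin mouse 1 and 21 without PBS mouse 3, and the median then was 0.15 and 0.12. Without rapamycin mouse 2 the median was 0.61, and without PBS mouse 1 it was 0.57.

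**Figure D3:**
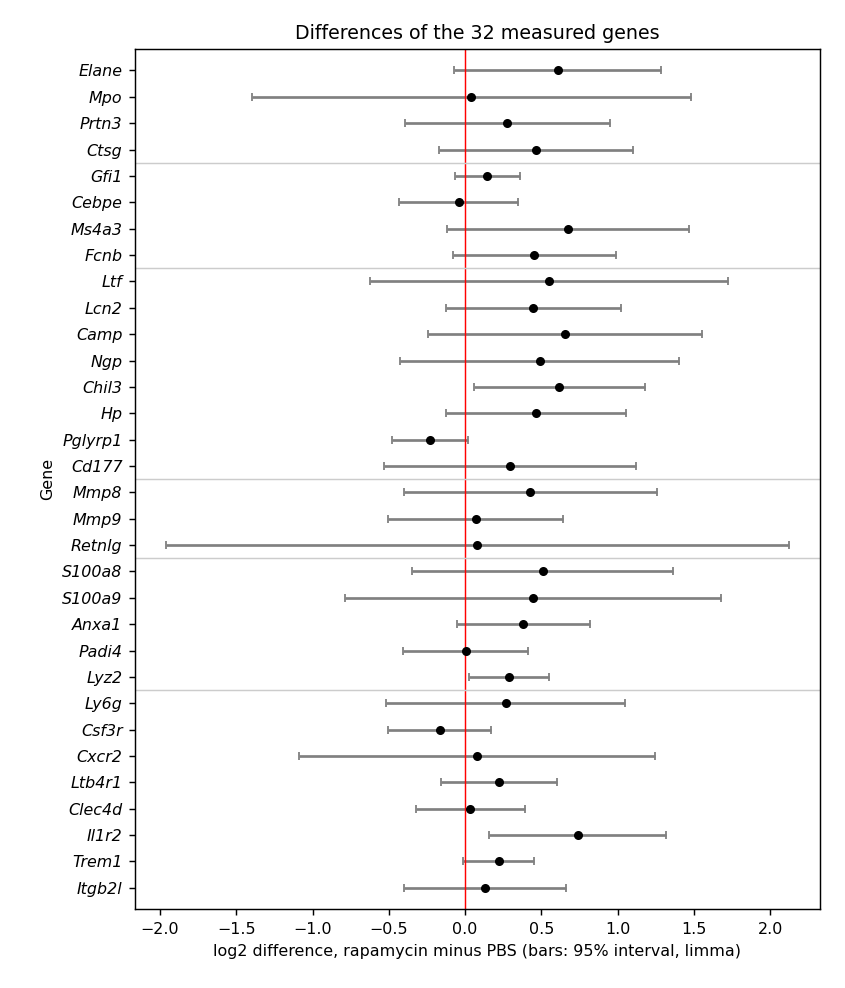
Log2 differences, rapamycin minus PBS, of the 32 genes with 95% intervals from limma, grouped by class. Most points lie right of 0 and 29 of the intervals include 0. Those of Chil3, Lyz2 and Il1r2 do not, and none of the genes passed after adjustment over all genes.

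The precision was set by the spread. Standard errors of the differences of the 32 genes ran from 0.093 for Gfi1 to 0.892 for Retnlg, with a median of 0.256, where the median over all genes was 0.0955. For Retnlg the 95% interval of the difference, -1.96 to 2.12, leaves both a lower and a higher level possible. For Gfi1 it was -0.07 to 0.36.

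Primary granule genes encode the contents of the first granules a promyelocyte makes. Their mean level was 8.60, 7.65 and 7.82 in rapamycin mice 1, 2 and 3, against 8.36, 7.56 and 7.11 in PBS mice 1, 2 and 3. The groups overlapped, with the first mouse of each group high and PBS mouse 3 low. The median difference over the 4 genes was 0.37, and none of them reached an unadjusted p of 0.05. That median was 0.18 without rapamycin mouse 1, 0.24 without PBS mouse 3 and 0.64 without PBS mouse 1.

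Mpo encodes myeloperoxidase, which makes hypochlorous acid from hydrogen peroxide. It measured 8.999, 6.996 and 7.200 in rapamycin mice 1, 2 and 3, against 8.591, 8.053 and 6.428 in PBS mice 1, 2 and 3. A 5.94-fold range separated the highest from the lowest mouse, while the difference between the groups was 0.04 (95% interval -1.40 to 1.48), and -0.59 without either rapamycin mouse 1 or PBS mouse 3. Elane, neutrophil elastase, measured 9.45, 8.95 and 9.17 with rapamycin, against 9.33, 8.40 and 8.01 with PBS. All rapamycin mice lay above PBS mice 2 and 3, and PBS mouse 1 lay among them. The difference of Elane was 0.61 (SE 0.30, adjusted p = 0.9998 in limma), 0.32 without PBS mouse 3 and 0.98 without PBS mouse 1.

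Prtn3 encodes proteinase 3, a close relative of elastase. It measured 9.19, 9.03 and 9.25 with rapamycin, against 9.68, 8.33 and 8.62 with PBS. The rapamycin mice were within 0.11 (SD) of each other, and PBS mouse 1 was the highest of all 6. The difference of 0.28 was 0.68 without PBS mouse 1 and 0.00 without PBS mouse 2. Ctsg, cathepsin G, measured 6.75, 5.64 and 5.67 with rapamycin, against 5.83, 5.46 and 5.37 with PBS. Rapamycin mouse 1 alone stood clear of the others, and the difference of 0.47 (SE 0.28) was 0.10 without that mouse.

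Precursor genes mark the cells in which granules are being built. Ms4a3, a membrane protein of granulocyte and monocyte progenitors, measured 8.13, 7.87 and 7.48 with rapamycin, against 8.07, 6.73 and 6.66 with PBS. PBS mouse 1 again lay with the rapamycin mice, and the difference was 0.68 (SE 0.35, adjusted p = 0.9998 in limma), 0.43 without PBS mouse 3 and 1.13 without PBS mouse 1. Fcnb, a ficolin that recognises sugars on microbes, averaged 7.05 ± 0.40 with rapamycin and 6.60 ± 0.39 with PBS (SD, n = 3 each). Cebpe, the transcription factor that mice need to form secondary granules, had a difference of -0.04 (SE 0.17). Gfi1, which represses the monocyte programme in granulocyte precursors, had one of 0.15 (SE 0.09).

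Secondary granule genes had a median difference of 0.48 over 8 genes, of which 7 were positive. The class mean was 10.94, 10.16 and 10.73 in rapamycin mice 1, 2 and 3, against 10.57, 10.40 and 9.63 in PBS mice 1, 2 and 3. Rapamycin mouse 2 lay below PBS mice 1 and 2, and PBS mouse 3 lay lowest. Without PBS mouse 3 the median was 0.11, and without rapamycin mouse 1 it was 0.25. Which class had the larger median turned on single mice: it was 0.48 for secondary and 0.37 for primary genes over all 6 mice, but 0.11 and 0.24 without PBS mouse 3, and 0.36 and 0.46 without rapamycin mouse 3.

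Ltf encodes lactoferrin, which withholds iron from bacteria. It measured 10.30, 8.47 and 9.15 with rapamycin, against 9.20, 9.33 and 7.74 with PBS. The 5.92-fold range between mice was wider than the group difference of 0.55 (95% interval -0.63 to 1.72). That difference was 0.05 without rapamycin mouse 1, 0.04 without PBS mouse 3 and 0.97 without rapamycin mouse 2. Ngp, neutrophilic granule protein, measured 12.32, 11.14 and 11.90 with rapamycin, against 11.69, 11.81 and 10.39 with PBS. Camp, the mouse cathelicidin, an antimicrobial peptide precursor, measured 9.22, 7.82 and 8.41 with rapamycin, against 8.09, 8.34 and 7.07 with PBS. In all 3 genes rapamycin mouse 1 was highest, PBS mouse 3 lowest, and rapamycin mouse 2 below PBS mouse 2. The difference of Ngp was 0.49 (SE 0.40), and 0.03 without PBS mouse 3. That of Camp was 0.66 (SE 0.39), and 0.28 without PBS mouse 3.

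Lcn2, lipocalin 2, binds bacterial siderophores. It measured 12.84, 12.34 and 12.75 with rapamycin, against 12.76, 12.17 and 11.67 with PBS, a difference of 0.45 (SE 0.25) that was 0.18 without PBS mouse 3. Cd177, a surface protein stored in secondary granules in humans, measured 9.20, 7.92 and 8.64 with rapamycin, against 8.68, 8.62 and 7.58 with PBS. The ordering of mice in Cd177 followed that of Ltf at its extremes, with rapamycin mouse 1 highest and PBS mouse 3 lowest. Its difference of 0.29 was -0.01 without the one and -0.07 without the other.

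Chil3, a chitinase-like protein that macrophages also secrete, had another order of mice. It measured 12.17, 12.30 and 13.08 with rapamycin, against 12.06, 12.12 and 11.52 with PBS. The groups did not overlap, though rapamycin mouse 1 lay only just above PBS mouse 2, and rapamycin mouse 3 was the highest. The difference was 0.62 (SE 0.25, unadjusted p = 0.0345, adjusted p = 0.9998 in limma). It was 0.34 without rapamycin mouse 3 and 0.43 without PBS mouse 3.

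Hp, haptoglobin, which binds free haemoglobin, measured 9.86, 9.67 and 10.43 with rapamycin, against 10.08, 9.21 and 9.28 with PBS. Here too rapamycin mouse 3 was highest, and the difference of 0.46 was 0.24 without it. Pglyrp1, a peptidoglycan recognition protein, was the one secondary granule gene with a negative difference, -0.23 (SE 0.11). It measured 11.62, 11.64 and 11.50 with rapamycin, against 12.01, 11.62 and 11.83 with PBS. Rapamycin mouse 1, the highest in Ltf, Ngp and Camp, was not high in Pglyrp1.

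**Figure D4:**
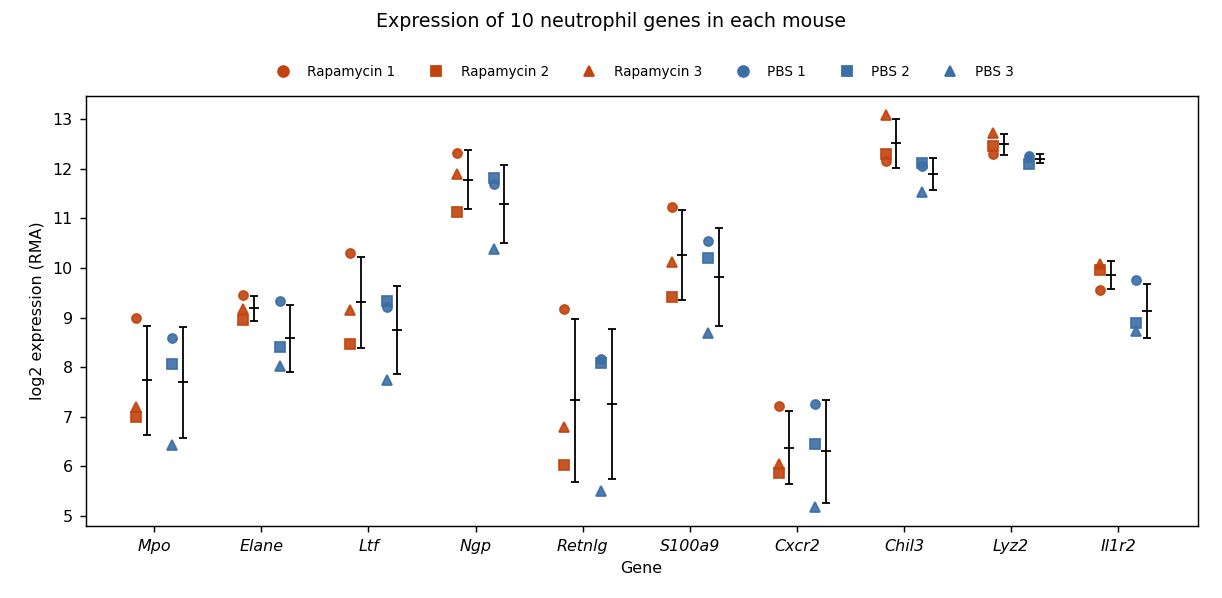
Log2 expression of 10 of the genes in each mouse, with rapamycin mice in red left of PBS mice in blue, marker shape giving the replicate number and black bars the group mean ± SD (n = 3). Mpo, Ltf, Retnlg, S100a9 and Cxcr2 spread widely inside each group, whereas Lyz2 spans 12.11 to 12.72.

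Late granule and secreted genes differed among themselves in range, and Retnlg had the widest of the 32 genes. It measured 9.18, 6.02 and 6.80 in rapamycin mice 1, 2 and 3, against 8.17, 8.09 and 5.50 in PBS mice 1, 2 and 3. A 12.8-fold range separated rapamycin mouse 1 from PBS mouse 3, and the group means, 7.33 ± 1.65 with rapamycin and 7.25 ± 1.52 with PBS (SD, n = 3 each), were close. Its difference was 0.08, and it was -0.84 without rapamycin mouse 1 and -0.79 without PBS mouse 3.

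Mmp8, neutrophil collagenase, measured 8.40, 8.12 and 9.16 with rapamycin, against 8.94, 7.88 and 7.57 with PBS. Mmp9, gelatinase B, for which the late granules are named, measured 8.46, 7.96 and 7.34 with rapamycin, against 8.09, 7.83 and 7.62 with PBS. Rapamycin mouse 3 was thus highest in Mmp8 and lowest in Mmp9. The difference of Mmp8, 0.43 (SE 0.36), was 0.13 without that mouse and 0.15 without PBS mouse 3. The median difference over the 3 late genes was 0.08, but -0.20 without rapamycin mouse 1 and -0.04 without PBS mouse 3.

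Set against each other within a mouse, the classes kept similar distances in both groups. The secondary class mean minus the primary class mean was 2.34, 2.51 and 2.91 in rapamycin mice 1, 2 and 3, against 2.21, 2.84 and 2.53 in PBS mice 1, 2 and 3. The late class mean minus the primary class mean was 0.08, -0.29 and -0.06 with rapamycin, against 0.04, 0.37 and -0.21 with PBS. The late class mean minus the secondary class mean was -2.26, -2.80 and -2.97 with rapamycin, against -2.17, -2.47 and -2.73 with PBS. Each set of values overlapped between the groups. These distances depend on the probe sets and are read only between mice.

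**Figure D5:**
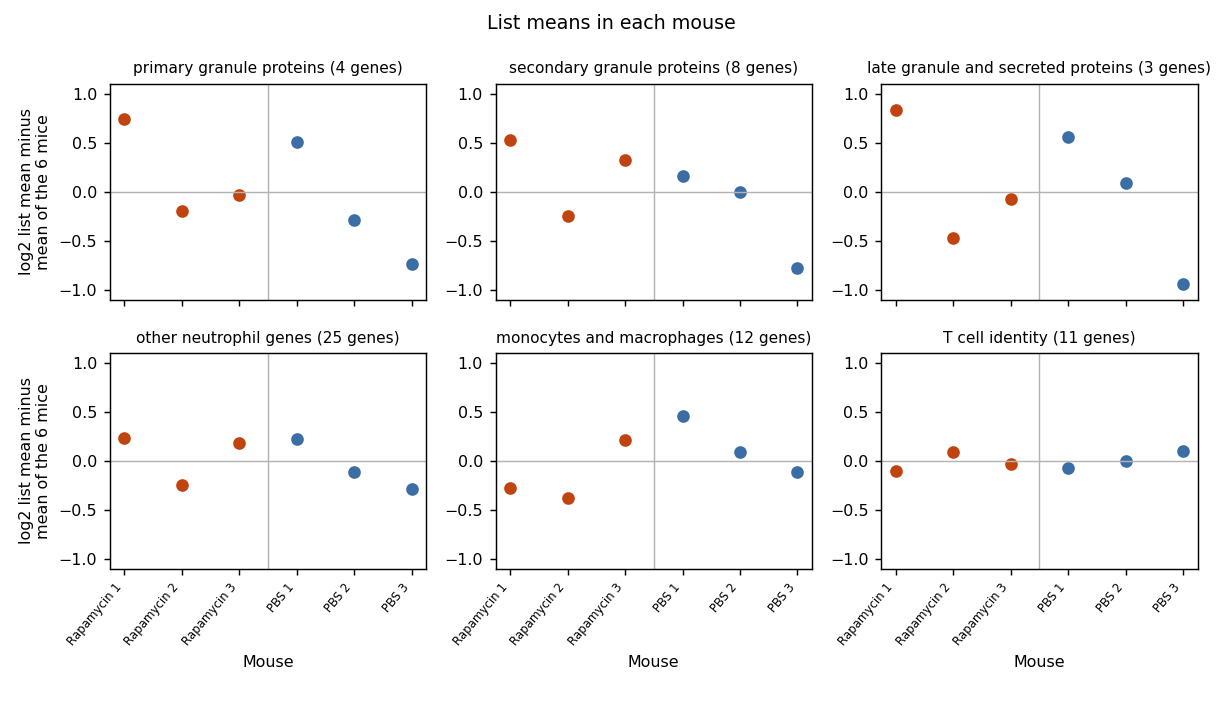
Mean log2 level of 6 gene lists in each mouse, as the deviation from the mean of the 6 mice (rapamycin in red, PBS in blue, all panels on one scale). The primary and late classes are highest in rapamycin mouse 1 and PBS mouse 1, the secondary class in rapamycin mice 1 and 3. All 3 granule classes are low in PBS mouse 3, while the 11 T cell identity genes span 0.203 log2 over all mice.

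S100a8 and S100a9 encode the subunits of calprotectin, the main cytosolic protein of neutrophils. S100a8 measured 11.51, 10.54 and 11.05 with rapamycin, against 11.25, 10.64 and 9.69 with PBS. S100a9 measured 11.23, 9.42 and 10.13 with rapamycin, against 10.55, 10.21 and 8.69 with PBS. The pair had the same highest and lowest mouse, rapamycin mouse 1 and PBS mouse 3. The difference of S100a8 was 0.51 (SE 0.37) and that of S100a9 0.44 (SE 0.54), and without PBS mouse 3 that of S100a8 was 0.09. For S100a9 it was -0.04 without rapamycin mouse 1 and -0.12 without PBS mouse 3. Padi4, the enzyme that citrullinates histones when neutrophil extracellular traps form, averaged 6.11 in both groups, with an SD of 0.36 with rapamycin and 0.21 with PBS.

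Lyz2, lysozyme, is made by macrophages and monocytes as well as neutrophils. It measured 12.29, 12.47 and 12.72 with rapamycin, against 12.27, 12.11 and 12.25 with PBS. The groups did not overlap, but rapamycin mouse 1 and PBS mouse 1 differed by only a little. The difference was 0.29 (SE 0.11, unadjusted p = 0.0348, adjusted p = 0.9998 in limma), and 0.18 without rapamycin mouse 3. Anxa1, annexin A1, an anti-inflammatory protein that T cells also express, had a difference of 0.38 (SE 0.19).

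Surface receptors guide neutrophils and regulate their output. Il1r2, the decoy receptor for interleukin-1, which activated regulatory T cells can also carry, had the smallest p of the 32 genes. It measured 9.55, 9.96 and 10.08 in rapamycin mice 1, 2 and 3, against 9.75, 8.89 and 8.74 in PBS mice 1, 2 and 3. PBS mouse 1 lay above rapamycin mouse 1, so the groups overlapped. The difference was 0.74 (SE 0.25, unadjusted p = 0.0189, adjusted p = 0.982 in limma), 0.54 without PBS mouse 3 and 1.05 without PBS mouse 1.

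Cxcr2, the chemokine receptor by which mature neutrophils leave the marrow, measured 7.21, 5.87 and 6.04 with rapamycin, against 7.25, 6.45 and 5.18 with PBS. The high mice were the first of each group, and the difference was 0.08 (95% interval -1.09 to 1.25), -0.34 without rapamycin mouse 1 and -0.48 without PBS mouse 3. Ly6g, the antigen by which mouse neutrophils are commonly identified, measured 7.64, 6.19 and 7.10 with rapamycin, against 6.75, 7.11 and 6.27 with PBS. Its difference of 0.27 was -0.06 without rapamycin mouse 1. Csf3r, the receptor for G-CSF, the growth factor of the lineage, measured 7.42, 7.51 and 7.52 with rapamycin, against 8.02, 7.48 and 7.44 with PBS. For Csf3r rapamycin mouse 1 was the lowest of all 6, and the difference of -0.17 was 0.02 without PBS mouse 1.

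Of the other receptors, Trem1, an amplifier of inflammatory signalling, had a difference of 0.22 (SE 0.10), and Ltb4r1, the leukotriene B4 receptor, also 0.22 (SE 0.17). Itgb2l, a neutrophil surface protein related to the beta-2 integrin, had one of 0.13 (SE 0.23), and Clec4d, a C-type lectin receptor for fungal glycans, one of 0.03 (SE 0.16). The median over the 8 measured receptors was 0.18.

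Further genes of the lineage were taken from lists. Among 25 other neutrophil genes that were measured, 17 lay higher with rapamycin and 8 lower, the median difference was 0.15, and 0 passed in either direction. Ckap4, a membrane protein of the endoplasmic reticulum, had a difference of 0.35 (SE 0.13) and the dehydrogenase gene Dhrs7 one of -0.18 (SE 0.09). Among 5 measured subunits of the NADPH oxidase, which produces superoxide, 3 were positive and 0 passed. Ncf1, its p47-phox organiser subunit, measured 10.69, 10.57 and 10.77 with rapamycin, against 10.50, 10.35 and 10.37 with PBS, without overlap (difference 0.27, SE 0.09, adjusted p = 0.982 in limma). Cybb, its catalytic subunit, had a difference of 0.31 (SE 0.18).

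Of 10 transcription factors listed for granulocytes 8 were positive, and 0 passed. The 8 include Irf8 (0.05) and Gata1 (0.07), which also act in other blood lineages. Cebpb, which drives emergency granulopoiesis, had a difference of 0.28 (SE 0.10) and Klf5 one of 0.14 (SE 0.11). Of 11 growth factors, chemoattractants and their receptors 9 were positive, and 0 passed. Csf2, which encodes GM-CSF and is made by activated T cells, measured 7.25, 8.21 and 7.33 with rapamycin, against 6.78, 6.70 and 7.20 with PBS. All rapamycin mice lay above all PBS mice, with rapamycin mouse 1 close to PBS mouse 3 (difference 0.70, SE 0.25, adjusted p = 0.982 in limma). Csf3, which encodes G-CSF itself, had a difference of 0.06 (SE 0.10), and the chemokine gene Cxcl3 one of 0.17 (SE 0.08).

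Markers of other cells were measured beside these genes, and their part in the differences was not tested. The mean over 12 monocyte and macrophage genes was 8.21, 8.11 and 8.70 in rapamycin mice 1, 2 and 3, against 8.95, 8.58 and 8.37 in PBS mice 1, 2 and 3. Rapamycin mouse 3 was the highest of all in 9 of the 32 neutrophil genes: Chil3, Hp, Mmp8, Anxa1, Lyz2, Ltb4r1, Clec4d, Il1r2 and Trem1. It was also the highest rapamycin mouse on the monocyte and macrophage list, while rapamycin mouse 1 was not high on that list. Of the 12 genes 9 had negative differences, led by Spic at -1.34 (SE 0.19). The T cell identity mean was lowest in rapamycin mouse 1, at 10.55, and highest in PBS mouse 3, at 10.75, the mice with the highest and the lowest mean over the 32 neutrophil genes. PBS mouse 1, at 10.58, and rapamycin mouse 2, at 10.74, lay close to these extremes. The lowest place of rapamycin mouse 1 rested on Trat1, which measured 6.05 in it and 6.32 to 6.80 in the other mice.

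In lists of 6 further cell types, from B cells to stem and progenitor cells, 0 genes passed, and the list means ranged over 0.152 to 0.612 log2 between the 6 mice. B cell genes averaged 4.99 to 5.09 with rapamycin and 5.04 to 5.14 with PBS over 8 genes, of which 4 were positive, and Cd79b had the smallest p, with a difference of -0.54. Natural killer cell genes averaged 5.74 to 5.94 with rapamycin and 5.61 to 6.04 with PBS over 6 genes, with 2 positive and Ncr1 at -0.24. Dendritic cell genes averaged 5.47 to 5.67 with rapamycin and 5.69 to 5.78 with PBS over 7 genes, with 1 positive and Xcr1 at -0.22. Erythroid genes averaged 6.54 to 7.01 with rapamycin and 6.40 to 6.66 with PBS over 5 genes, with 3 positive and Epb42 at 0.31. Platelet genes averaged 4.57 to 4.64 with rapamycin and 4.62 to 4.74 with PBS over 5 genes, with 1 positive and Clec1b at -0.26. Stem and progenitor genes averaged 5.70 to 5.94 with rapamycin and 5.73 to 5.98 with PBS over 6 genes, with 3 positive and Cd34 at -0.30.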

How the data were processed

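RNA of CD3-sorted spleen cells from 6 mice was measured on 1 array each. The deposited values are log2 expression, made with Affymetrix Expression Console and RMA per the submitters' processing notes. RMA subtracts background, equalises the arrays and summarises probe sets, which compresses weak signals and hides any shift shared by most genes. No version of either is stated in the labels or headers. Groups and replicate numbers come from the sample titles.

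Of 35556 probe sets, 21789 named 1 gene in the platform's probe table, giving 19938 genes by the highest mean over the 6 arrays. Each gene's difference between groups was fitted with limma 3.58.1 in R 4.3.3, with no term other than the group (lmFit, eBayes). Tests were two-sided, with Benjamini-Hochberg adjustment over all genes and a threshold of 0.05. With 3 mice a group, the number of arrays limits the precision. Figures were drawn with matplotlib 3.10.9 in Python 3.11.15.

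All 34 listed genes are named. Granule proteins, S100a8, S100a9, Ly6g, Csf3r, Cxcr2 and genes at an unadjusted p under 0.05 have values per mouse. Of each pathway list up to 2 genes with the smallest p are named, and of each list of other cells 1. Csf3 was named outside this rule after its value was seen. The genes, classes and lists were chosen with earlier results of these data known. A total of 14 alternatives were run.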

Additional observations from a re-analysis of the deposited data

How the results depend on the processing

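In all 14 alternatives 0 of the measured neutrophil genes passed an adjusted p of 0.05 in limma, and the lowest adjusted p was 0.5002. Over all genes the number passing was 0 to 7, with 7 without rapamycin mouse 1. The number at an unadjusted p under 0.05 was 3 as reported. It was 12 without PBS mouse 1 (3.34% of all genes), 6 without rapamycin mouse 2 (3.34%), 2 without PBS mouse 2 (4.66%), 0 without rapamycin mouse 3 (4.29%), 0 without PBS mouse 3 (4.53%), 4 with array weights (7.43%), 4 with trend and robust moderation (4.72%) and 3 in the other settings without a block. The number whose groups do not overlap was 1 with arrays centred on their median, against 8.26% of all genes, and 2 to 12 with 1 mouse left out. It was 12 without PBS mouse 1, where 16.3% of all genes did not overlap, and 6 without rapamycin mouse 2, where 16.4% did not. Leaving out rapamycin mouse 1 (24.1% of all genes), rapamycin mouse 3 (18.2%) or PBS mouse 2 (19.8%) gave 3. Leaving out PBS mouse 3 (19.5%) gave 2. The number of positive differences was 20 to 30 with 1 mouse left out. The median difference stayed positive for all genes of the set together (0.12 to 0.61 with 1 mouse left out, 0.21 to 0.38 otherwise), for the primary class (0.18 to 0.64, 0.18 to 0.40) and for the secondary class (0.11 to 0.71, 0.32 to 0.50). For the late class it was -0.20 to 0.65 with 1 mouse left out and -0.14 with array weights.

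Of 443 repeats of single gene differences, 29 had the opposite sign, in 12 genes. With array weights these were Mpo (-0.43), Mmp9 (-0.14), Retnlg (-0.52), Padi4 (-0.11), Cxcr2 (-0.29) and Itgb2l (-0.024). With 1 mouse left out the ranges were -0.59 to 0.49 for Mpo, -0.23 to 0.058 for Cebpe, -0.065 to 0.62 for Cd177, -0.20 to 0.36 for Mmp9, -0.84 to 0.74 for Retnlg, -0.12 to 0.86 for S100a9, -0.19 to 0.17 for Padi4, -0.065 to 0.66 for Ly6g, -0.27 to 0.019 for Csf3r, -0.48 to 0.56 for Cxcr2, -0.12 to 0.21 for Clec4d and -0.12 to 0.36 for Itgb2l. Without rapamycin mouse 1 the differences of Mpo, Cd177, Mmp9, Retnlg, S100a9, Padi4, Ly6g, Cxcr2 and Itgb2l were negative, and so they were without PBS mouse 3, apart from Ly6g. Clec4d turned negative without rapamycin mouse 3 or PBS mouse 1, Csf3r positive without PBS mouse 1, and Cebpe positive without rapamycin mouse 2, rapamycin mouse 3 or PBS mouse 1. Array weights give rapamycin mouse 1 the least weight. The cause of the changes of sign was not tested.

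Over all genes same-numbered mice did not deviate together: the correlations of their deviations were 0.09, -0.19 and 0.19, so the numbers were not taken as pairs. These correlations were not computed for the neutrophil genes alone. With the replicate number as a block the median difference over the set was 0.29, 7 of the 32 genes had an unadjusted p under 0.05, against 4.97% of all genes, and 0 passed, as over all genes. Among the 7 were Ms4a3, Elane and Ctsg, at unadjusted p = 0.0109, 0.0142 and 0.0182 in limma with this block. Without the lowest 50% of genes, 27 of the 32 remained. Ctsg, Padi4, Cxcr2, Clec4d and Trem1 lay in that lower part and were left out. The deposited values carry no signal over background, so weakly expressed genes could not be told from background.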

Other observations

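Granule genes of other granulocytes were measured too, and the genes given here were chosen after their values were seen. Epx, the peroxidase of eosinophils, measured 5.77, 4.46 and 4.91 in rapamycin mice 1, 2 and 3, against 5.78, 5.62 and 4.88 in PBS mice 1, 2 and 3. Prg2, the major basic protein of eosinophil granules, measured 6.52, 5.58 and 5.68 with rapamycin, against 6.66, 6.66 and 5.20 with PBS. In both genes rapamycin mouse 1 and PBS mice 1 and 2 were the high ones, as in Retnlg and Mpo. Over 6 eosinophil genes 2 differences were positive, the smallest p belonged to Ccr3 at -0.45, and 0 passed. Over 8 basophil and mast cell genes the mean was 6.18, 5.73 and 5.60 with rapamycin, against 5.83, 5.92 and 5.42 with PBS, with 7 positive, 0 passing and the smallest p in Prss34, at 0.35.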
